A study of Mus musculus with 36 samples.

Results

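The microRNAs miR-103 and miR-107 were followed in liver and epididymal white adipose tissue (eWAT, the fat pad beside the testis) of mice. They comprise 4 mature miRNAs, mmu-miR-103-3p, mmu-miR-107-3p, mmu-miR-103-1-5p and mmu-miR-103-2-5p (written without the species prefix from here on), chosen by name from 1966 mature miRNAs in the count table. Where a name had several lines, the line with the highest total was used. Small RNA was sequenced in a study of metabolic traits passed from fathers to offspring. All 36 libraries came from wild-type C57BL/6 F1 males aged 24 weeks, which ate chow to 6 weeks and then a specific diet for 18 weeks. Each tissue holds 3 diet groups of 6 libraries, with the diet tags LFD, HFD and HFLFD, called LF, HF and HFLF here. The protocol text gives LFD as the diet of every sample, so the labels leave unsaid whether a tag names the diet of the mouse or the father's, and only group names are used here.

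A miRNA pairs through its seed, bases 2 to 8, with sites in messenger RNAs and lowers their output. miR-103 and miR-107 are known as regulators of insulin sensitivity in obese mice and act on caveolin-1, a scaffold of the insulin receptor's membrane domain. Their genes lie inside the Pank genes, which encode pantothenate kinases, the enzymes that start coenzyme A synthesis. Each hairpin precursor can give 2 mature arms, named 5p and 3p, of which 1 is usually kept.

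The mature sequences are shown because the comparison of miR-103-3p with miR-107-3p rests on a single base. They are written 5′ to 3′ from RefSeq (GRCm38.p6) with the seed in capitals.
miR-103-3p: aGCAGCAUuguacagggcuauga
miR-107-3p: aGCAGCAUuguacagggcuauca
miR-103-1-5p: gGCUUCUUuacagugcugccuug
miR-103-2-5p: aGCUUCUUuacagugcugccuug
All 4 are 23 bases long, so a comparison of their levels needs no correction for length. miR-103-3p differs from miR-107-3p by G22C, counted from 1 at the 5′ end, and the seed GCAGCAU is the same. That seed, read on the mature strand, was found in 2 of 1679 mature mouse sequences, these 2. The 5p arms of the miR-103 hairpins differ by G1A, outside their shared seed. A read that ends before base 22 fits miR-103-3p and miR-107-3p alike. How such reads were counted is not stated, and their part in the levels and the ratio was not tested.

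The 3 hairpins are shown because they explain which arms can be told apart by sequence. Capitals mark the 5p and then the 3p arm.
Mir103-1, chr11:35782396-35782481, plus strand: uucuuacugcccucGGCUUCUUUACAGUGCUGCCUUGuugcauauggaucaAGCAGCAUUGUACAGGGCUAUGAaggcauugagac
Mir103-2, chr2:131288052-131288137, plus strand: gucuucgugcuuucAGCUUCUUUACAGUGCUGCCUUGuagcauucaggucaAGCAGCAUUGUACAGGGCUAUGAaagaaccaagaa
Mir107, chr19:34820687-34820773, minus strand: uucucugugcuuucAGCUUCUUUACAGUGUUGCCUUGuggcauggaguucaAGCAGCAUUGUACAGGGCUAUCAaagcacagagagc
In the GENCODE M21 annotation of GRCm38, Mir103-1 lies in Pank3 (chr11:35769484-35791285), Mir103-2 in Pank2 (chr2:131262495-131299188) and Mir107 in Pank1 (chr19:34806940-34879455). Each sits on its host's strand, in the intron between exons 5 and 6 of the longest coding transcript, which has 7 exons in all 3 hosts. In the annotation, 0 transcripts of the hosts have an exon over a hairpin. The 3p arm of miR-103 is the same from both hairpins, so its reads do not name their locus, whereas the 5p arms do.

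Total counts per library ran from 7866583 to 18832842. Replicate 4 of liver LF and replicate 6 of liver HF stand apart: they held 316 and 368 detected miRNAs against 540 to 633 in the other 16 liver libraries, and the authors' liver log2 table, as used here, holds only the other 16. Replicates 1 and 4 of eWAT LF also stand apart, with summed epithelial markers (5 of the miR-200 family) of 15801 and 20633 CPM (counts scaled to the total of the library), where the remaining 16 held 61.0 to 287. The markers of each tissue went with its label. The summed hepatocyte list (5 miRNAs, miR-122-5p among them) held 506640 to 602040 CPM in liver and 3629 to 7729 in eWAT, and the summed list of adipocyte and fat stroma (4 miRNAs) 162390 to 259400 in eWAT and 7860 to 17161 in liver.

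miR-103-3p was among the most abundant miRNAs of fat. By rank of counts it stood 16th to 19th in the 18 eWAT libraries and 29th to 36th in the 18 liver libraries. In eWAT its level was lowest at 10949 CPM, had a median of 13768 and reached 16682 in LF. The HF libraries ran from 11667 through a median of 14307 to 15475 CPM, and the HFLF libraries from 12327 through 14030 to 16516. The 3 eWAT groups lay over each other, with means of 13831 ± 1934, 13969 ± 1407 and 14225 ± 1880 CPM (SD, n = 6 each) for LF, HF and HFLF. In liver, miR-103-3p ran from 1349 CPM through a median of 2244 to 2454 in LF and from 1948 through 2520 to 3269 in HF. The HFLF livers ran from 2420 through 2786 to 3184 CPM. The order of the liver means was LF, HF, HFLF (2132 ± 421, 2526 ± 494 and 2811 ± 293 CPM, SD, n = 6 each). All 3 liver groups overlap, LF and HFLF included (highest LF 2454, lowest HFLF 2420). Every eWAT library lay above every liver library on the CPM scale, where most of all miRNAs were higher in eWAT by test, as given below. The share of all miRNAs that separate in this way was not counted.

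miR-107-3p was far scarcer than miR-103-3p in fat and closer to it in liver. It ranked 106th to 128th in eWAT and 41st to 82nd in liver. In liver LF it ran from 221 CPM through a median of 329 to 562, and in liver HF from 287 through 359 to 922. The liver HFLF libraries ran from 373 through 406 to 443 CPM. The highest values of LF and HF belong to the libraries that stand apart: LF replicate 4 held 562 CPM and HF replicate 6 held 922 CPM. The liver means were 346 ± 117, 449 ± 236 and 408 ± 30.1 CPM (SD, n = 6 each) for LF, HF and HFLF. In eWAT LF it ran from 229 through 269 to 330 CPM, in HF from 209 through 288 to 293, and in HFLF from 222 through 261 to 274. The eWAT means fell within a narrow range, 276 ± 43.9, 268 ± 36.3 and 252 ± 23.8 CPM (SD, n = 6 each).

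**Figure D1:**
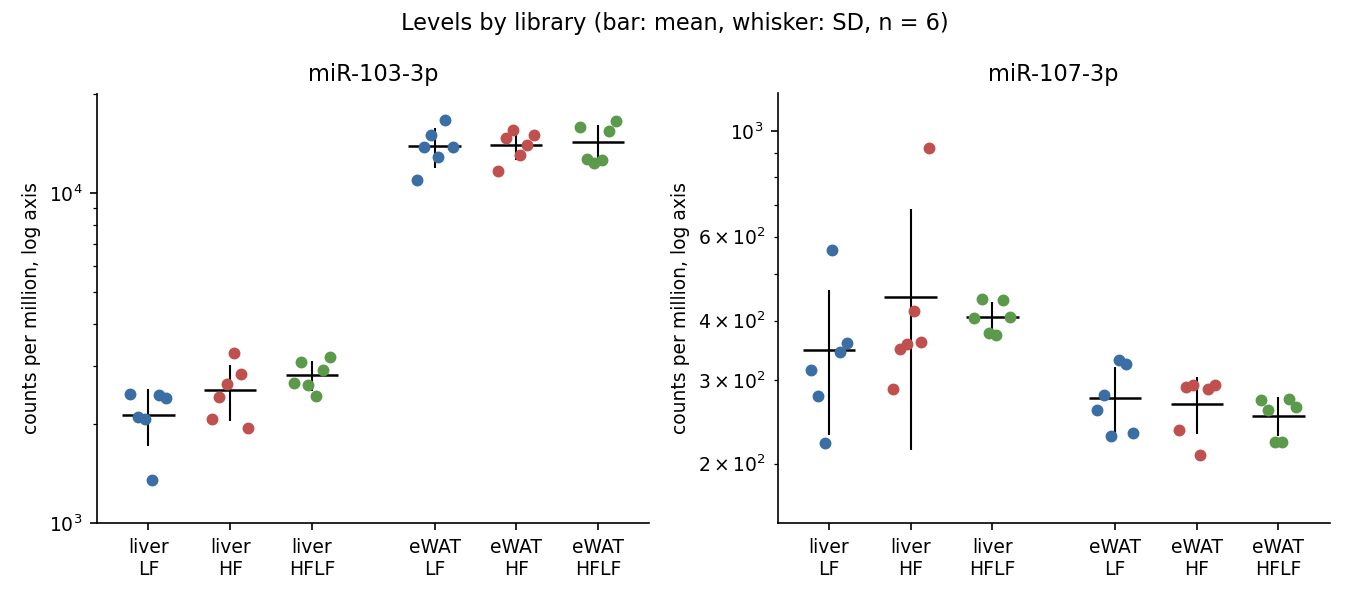
Levels of miR-103-3p and miR-107-3p in CPM (vertical log axis) for each library, by tissue and diet group; points are libraries, bars the mean and whiskers the SD of 6. All eWAT points of miR-103-3p lie above all liver points, whereas for miR-107-3p the LF and HF points of the tissues overlap and 1 liver LF and 1 liver HF point (562 and 922) stand high.

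Counting error was small beside this spread. The counts of miR-103-3p ran from 11463 to 266880 per library and those of miR-107-3p from 1740 to 17369, and the largest counting error of a level was 0.934% for miR-103-3p and 2.40% for miR-107-3p. PCR copies were not marked with molecular identifiers, so these figures leave out the error of amplification.

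Between the tissues the members went opposite ways. With TMM scaling, which sets libraries level on the bulk of their miRNAs, miR-103-3p was higher in eWAT than in liver by 1.40 ± 0.14 on the log2 scale (SE) in LF, 1.30 ± 0.14 in HF and 1.21 ± 0.14 in HFLF (edgeR quasi-likelihood test, adjusted p = 1.07e-10, 5.64e-10 and 2.66e-09). miR-107-3p was lower in eWAT by the same test, with differences of -1.64 ± 0.21, -1.90 ± 0.21 and -1.82 ± 0.21 (adjusted p = 4.26e-08, 1.94e-09 and 4.76e-09). The 2 members tested were thus both called in each comparison. The differences of miR-103-3p stood above those of 63.6%, 65.8% and 64.8% of all miRNAs in LF, HF and HFLF. Those of miR-107-3p stood above 9.84%, 10.1% and 12.2%. Of 681 miRNAs tested, 47.4% were called in LF, 49.6% in HF and 48.6% in HFLF, so a call as such is common between these tissues. miRNAs called higher in eWAT were 31.4%, 32% and 29.4% of those tested, and called lower 16%, 17.6% and 19.2%. In bulk tissue, a difference in the share of cells that make a miRNA and one in its amount per cell cannot be told apart.

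The size of these differences depends on the scaling. miR-122-5p, the main miRNA of hepatocytes, held 455895 to 570094 CPM of the liver libraries. With TMM and miR-122-5p left out, the median tissue difference of all miRNAs was 0.45, 0.39 and 0.17 in LF, HF and HFLF. Both members kept their direction and call in that fit. No plain CPM fit without miR-122-5p was run, so its part in the shift with scaling was not tested. Between TMM and plain CPM scaling the median of all miRNAs moved from 0.60, 0.48 and 0.27 to 1.87, 1.66 and 1.39 on the log2 scale in LF, HF and HFLF. On plain CPM miR-103-3p was higher in eWAT by 2.70, 2.47 and 2.34. miR-107-3p was lower by -0.75 in HF and -0.69 in HFLF (edgeR, adjusted p = 0.00217 and 0.0043), and in LF its difference of -0.33 did not pass the test (adjusted p = 0.154). On that scaling 62%, 57.1% and 54% of the 681 miRNAs were called higher and 5.87%, 7.78% and 8.52% lower in LF, HF and HFLF. Relative to the median of all miRNAs the members moved little with scaling. miR-103-3p stood 0.81, 0.82 and 0.94 above that median with TMM and 0.83, 0.81 and 0.95 with plain CPM. miR-107-3p stood at -2.24, -2.38 and -2.09 with TMM and -2.20, -2.41 and -2.08 with plain CPM.

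**Figure D2:**
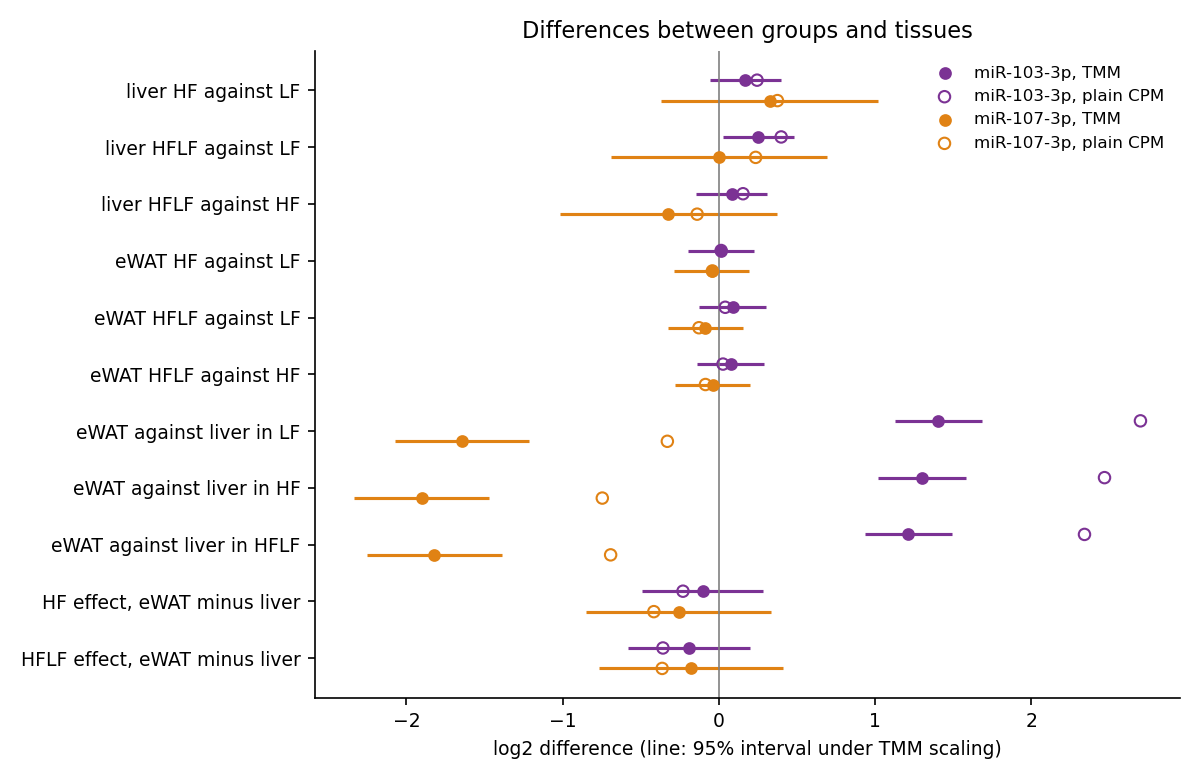
Log2 differences of miR-103-3p and miR-107-3p (horizontal axis) between diet groups within a tissue, between eWAT and liver, and between the tissues in the diet difference. Lines are 95% intervals under TMM scaling, and open points are the plain CPM values of every comparison. The tissue differences of miR-103-3p lie right of 0 and those of miR-107-3p left of 0 under both scalings, and the diet intervals are wide beside their values for miR-107-3p in liver.

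The ratio of miR-103-3p to miR-107-3p within a library does not depend on scaling, and it separated the tissues completely. In liver LF it ran from 2.40 through a median of 7.31 to 9.35, in HF from 2.11 through 7.29 to 7.85, and in HFLF from 6.49 through 6.77 to 7.83. In eWAT LF it ran from 38.9 through 50.5 to 65.3, in HF from 48.7 through 50.9 to 62.6, and in HFLF from 48.9 through 56.4 to 62.8. All 18 eWAT libraries lay above all 18 liver libraries. How many other pairs of miRNAs separate the tissues in this way was not counted. With TMM, 47.4% to 49.6% of the 681 miRNAs were called between the tissues, so such pairs may be common. The mean log2 ratio was higher in eWAT by 2.998 ± 0.31 (SE, 7.99-fold) in LF, 3.12 ± 0.31 (8.70-fold) in HF and 3.03 ± 0.06 (8.17-fold) in HFLF. For each, the exact permutation test (2-sided, 6 against 6) gave p = 0.0021645, the smallest this design allows, and 0.0064935 after Benjamini-Hochberg adjustment over the 9 ratio tests. Expressed the other way, miR-107-3p amounted to 1.53% to 2.57% of miR-103-3p in eWAT. In liver it amounted to 10.7% to 15.4% in 16 libraries, and to 41.7% and 47.3% in LF replicate 4 and HF replicate 6. Unlike the ratio, the summed level of both, which share 1 seed, depends on scaling. On plain CPM it was 2891 ± 475 in liver and 14273 ± 1674 in eWAT (SD, n = 18 each). The tissue gap of miR-103-3p, the larger part of the sum, was smaller with TMM, as given above.

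The libraries that stand apart in each tissue also hold its lowest ratios. In liver these are LF replicate 4 (2.40) and HF replicate 6 (2.11), and the other 16 ran from 6.49 to 9.35. Their hepatocyte sums, 557880 and 532630 CPM, lay within the range of the other 16, while their endothelial sums (2 miRNAs, miR-126a) of 1744 and 2328 lay below the 3670 to 6074 of the others. Their epithelial sums of 188 and 126 CPM also lay below the others, at 291 to 831. In eWAT the lowest ratios are those of LF replicates 1 and 4 (42.2 and 38.9), which hold the high epithelial sums, and the other 16 ran from 48.7 to 65.3. Further marker sums of these 2 libraries lay outside the range of the others. They were lower for endothelial cells (10526 and 11634 CPM against 16824 to 25903) and for erythroid cells (3 miRNAs, 1508 and 1917 against 2313 to 5022). They were higher for the hepatocyte list (7729 and 6555 against 3629 to 5939) and for striated muscle (3 miRNAs, 3486 and 3583 against 468 to 3314). miR-122-5p held at most 3092 CPM in any eWAT library, so the rest of the hepatocyte list made up more of both sums. The part of these markers in the ratio was not tested. Without all 4 libraries the tissue differences of the log2 ratio were 2.88, 2.82 and 3.03, with exact permutation p of 0.0079365, 0.0021645 and 0.0021645.

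**Figure D3:**
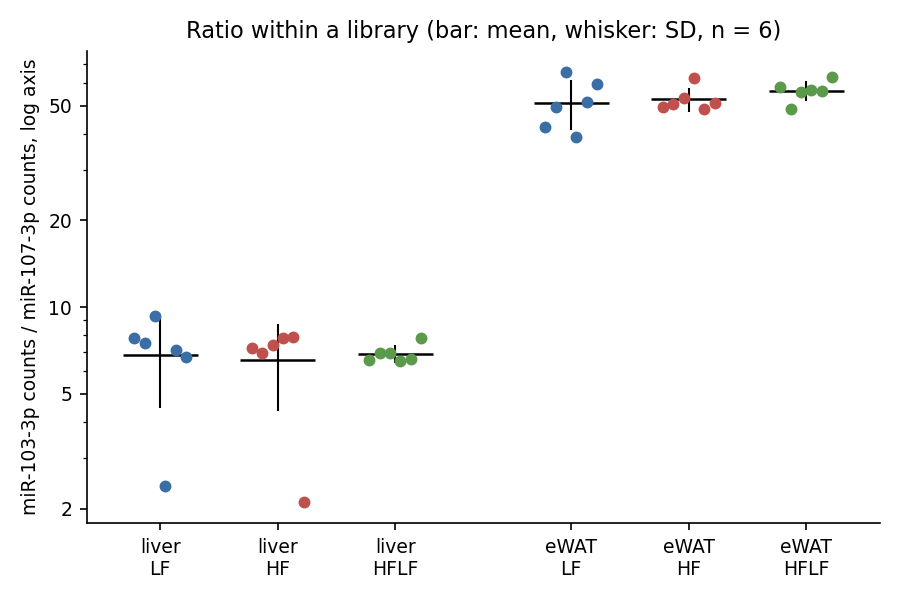
Ratio of miR-103-3p counts to miR-107-3p counts in each library (vertical log axis) by tissue and diet group; bars are means and whiskers SDs of 6. The eWAT libraries lie between 38.9 and 65.3 and the liver libraries between 2.11 and 9.35, with LF replicate 4 and HF replicate 6 the low liver points.

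The diet groups were compared within each tissue to ask whether the members differed with the group. In liver 0 of the 2 members tested passed in any of the 3 comparisons, against a background of 0% of 478 miRNAs called (edgeR; 16, 14 and 5 at an unadjusted p under 0.05 in HF against LF, HFLF against LF and HFLF against HF; DESeq2 called 0, 0 and 0). miR-103-3p differed by 0.17 ± 0.11 on the log2 scale (SE) in HF against LF and by 0.08 ± 0.11 in HFLF against HF. In HFLF against LF it stood 0.25 ± 0.11 higher, with a 95% interval of 0.03 to 0.48, and its unadjusted edgeR p of 0.0311 ranked 8th of 478, with an adjusted p of 0.989. miR-107-3p had wide errors in liver, with 0.32 ± 0.33 in HF against LF, 0.00 ± 0.33 in HFLF against LF (95% interval -0.69 to 0.69) and -0.32 ± 0.33 in HFLF against HF.

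The liver values of miR-107-3p depended on 2 libraries. Without LF replicate 4 the other 5 LF livers, at 221 to 358 CPM, lay below all 6 HFLF livers, at 373 to 443 CPM. How many of all miRNAs separate in this way was not counted. With all liver libraries, the median of all miRNAs in HFLF against LF was 0.16 on plain CPM and 0.01 with TMM. Without the 4 libraries that stand apart the difference of miR-107-3p in HFLF against LF was 0.34 ± 0.10 (edgeR, unadjusted p = 0.00249, adjusted p = 0.583), and that of miR-103-3p was 0.21 ± 0.08 (adjusted p = 0.646). In the same fit miR-107-3p in HFLF against HF turned from -0.32 to 0.20, and in HF against LF it was 0.14. On the authors' log2 values, which hold 16 liver libraries, limma gave 0.40 for miR-107-3p and 0.25 for miR-103-3p in HFLF against LF (adjusted p = 0.589 for both). With or without these libraries neither member passed the test in liver.

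In eWAT 0 of the 2 members tested passed in any comparison, against a background of 0% of 638 miRNAs called (edgeR; 49, 98 and 21 at an unadjusted p under 0.05; DESeq2 called 16, 31 and 0). miR-103-3p differed by 0.01 ± 0.10 in HF against LF, 0.09 ± 0.10 in HFLF against LF and 0.08 ± 0.10 in HFLF against HF. miR-107-3p differed by -0.05 ± 0.11, -0.09 ± 0.11 and -0.04 ± 0.11 in the same order. All 6 values are smaller than their standard errors. The ratio of miR-103-3p to miR-107-3p did not pass in any diet comparison either: its log2 differences were -0.07, 0.13 and 0.19 in liver and 0.06, 0.16 and 0.10 in eWAT, with adjusted p from the exact permutation test between 0.417 and 0.955. Among these, HFLF against HF in eWAT passed without eWAT HF replicate 4 (0.15, adjusted p = 0.0487 by the same test).

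Whether the diet differences themselves differ between the tissues was tested as an interaction. For HF the difference in eWAT minus that in liver was -0.10 ± 0.19 for miR-103-3p and -0.26 ± 0.29 for miR-107-3p, and for HFLF it was -0.19 ± 0.19 and -0.18 ± 0.29. Neither member passed (edgeR), against 2.5% and 1.91% of 681 miRNAs called. A miss of the threshold does not show that the groups are alike: the liver interval of miR-107-3p in HFLF against LF reached 0.69 in either direction.

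The 5p arms were detected at a few counts only. miR-103-1-5p, from the hairpin in Pank3, had 13 counts in all, from 2 eWAT libraries (10 in LF and 3 in HF). Its 0 counts in liver stand beside 588886 of miR-103-3p. If every read was recorded, counting error alone would allow up to 3 counts over these libraries, or 0.000509% of the 3p arm. The lowest 5p count above 0 in any library was 3, so whether smaller counts were recorded is not known, and this limit may be too low. miR-103-2-5p, from the hairpin in Pank2, had 33 counts in 6 libraries, of which 1 was a liver HF library with 4. Both fell below the filter on low counts and were not tested. Against 3971484 counts of miR-103-3p, the summed 5p arms made up 0.00116% of the reads of both arms (95% Wilson interval 0.000868% to 0.00154%). The matching share for miR-107-5p, which is no member, was 0.0081% (13 counts against 160473, interval 0.00473% to 0.0139%). Both intervals pool the reads of all libraries as if independent, so they leave out the spread between libraries and are too narrow for it. The 2 miR-103 5p arms were both at 0 in 30 of 36 libraries, and miR-107-5p had counts in 3 liver libraries only. The 5p reads are therefore too few to say which miR-103 hairpin supplies the 3p arm in either tissue.

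The table also gives miR-103-3p 1 line for each of its hairpins, although the arm is the same from both. The line of mir-103-2 was higher in 36 of 36 libraries, by 0.394% to 1.94%, with a median of 1.13% in liver and 1.42% in eWAT. The bases that follow the arm differ between the hairpins shown above, agg in Mir103-1 and aag in Mir103-2, and their part in this excess was not tested. How reads that match both hairpins were counted is not stated, and the lines were not added here. If such reads were split between the lines rather than counted in each, the levels, ranks and ratios of miR-103-3p given here are too low. With the lines summed the ratio to miR-107-3p ran from 4.202 to 18.6 in liver and from 77.5 to 130.0 in eWAT, and its log2 tissue differences were 2.996, 3.12 and 3.03. In the authors' log2 tables the gap from miR-103-3p to miR-107-3p matched the summed lines within 0.00144 and stood 0.985 to 0.995 above the single line, so those tables hold miR-103-3p at about 1 log2 unit more.

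The 7 relatives of the miR-15 and miR-107 group share the core AGCAGC with the members, set 1 base further from the 5′ end. They are known as brakes on the cell cycle. They are shown with the core in capitals because the shift by 1 base gives them another seed.
miR-103-3p: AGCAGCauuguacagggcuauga
miR-107-3p: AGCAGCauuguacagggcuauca
miR-16-5p: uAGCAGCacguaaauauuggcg
miR-15a-5p: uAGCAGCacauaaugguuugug
miR-15b-5p: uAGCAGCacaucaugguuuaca
miR-195a-5p: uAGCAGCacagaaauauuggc
miR-497a-5p: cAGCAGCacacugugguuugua
miR-322-5p: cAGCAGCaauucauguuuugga
miR-503-5p: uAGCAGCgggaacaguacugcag
The core lay in the first 8 bases of 13 of 1679 mature sequences (0.774%), read on the mature strand. It begins at base 1 in miR-103-3p and miR-107-3p and at base 2 in the 7 relatives.

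None of the 7 relatives passed a diet comparison in either tissue (edgeR), as for the members, where 0% of all miRNAs were called. Between the tissues they did not follow 1 direction with TMM scaling. 4 were called higher in eWAT in all 3 groups, miR-195a-5p (1.73, 2.10 and 2.37 in LF, HF and HFLF), miR-497a-5p (1.75, 1.80 and 1.97), miR-322-5p (2.06, 2.31 and 2.68) and miR-503-5p (1.60, 2.15 and 1.85). miR-15a-5p (-1.02, -1.22 and -1.08) and miR-16-5p (-0.69, -0.57 and -0.57) were called lower, and miR-15b-5p was not called. The 4 called higher were 57.1% of the 7, against 31.4%, 32% and 29.4% of all miRNAs in LF, HF and HFLF. The 2 called lower were 28.6%, against 16%, 17.6% and 19.2%. The median of the 7 was 1.60, 1.80 and 1.86, against 0.60, 0.48 and 0.27 over all miRNAs. On plain CPM 6 were higher, 0 lower and 1, miR-15a-5p, not called, so the direction of miR-16-5p flips (0.60, 0.59 and 0.57). On that scaling most of all miRNAs were called higher, as given above, and miR-16-5p lay below the median of all miRNAs under both scalings. miR-107-3p lay below all 7 relatives in all 3 groups under TMM and plain CPM, and miR-103-3p lay between the miR-15 and miR-16 values and those of the 4 called higher.

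**Figure D4:**
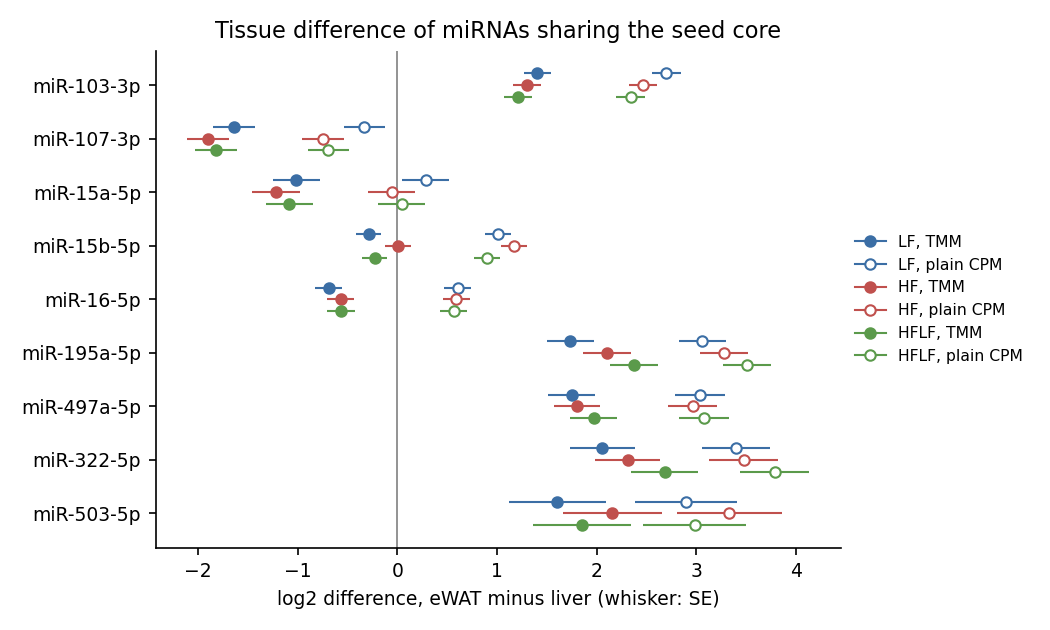
Log2 difference of eWAT minus liver (horizontal axis, whiskers SE) for miR-103-3p, miR-107-3p and the 7 miRNAs that share their core, by diet group and scaling. miR-107-3p is the lowest of the 9 under TMM and plain CPM, and miR-16-5p changes side with scaling.

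As a wider setting, 27 miRNAs linked to insulin action or to glucose and lipid metabolism of liver and fat were read from the same fits. 0 of 27 passed a diet comparison (edgeR). Between the tissues, with TMM, 8 were called higher and 11 lower in eWAT in LF, 9 and 12 in HF, and 6 and 13 in HFLF. The higher ones were 29.6%, 33.3% and 22.2% of the list, against 31.4%, 32% and 29.4% of all 681 miRNAs. The lower ones were 40.7%, 44.4% and 48.1%, against 16%, 17.6% and 19.2%. On plain CPM 19 were higher and 3 lower in LF, and 17 and 3 in each of HF and HFLF, so the split of this list depends on scaling. Those counts are to be read against the shares of all miRNAs on plain CPM given above, of which most were higher too. Their medians under TMM were -0.36, -0.49 and -0.51, against 0.60, 0.48 and 0.27 over all miRNAs. Those with the smallest p included miR-122-5p, the hepatocyte miRNA that acts in lipid metabolism, at -10.26, -9.50 and -9.51, and miR-143-3p, abundant in fat and smooth muscle, at 2.36, 2.45 and 2.57. The tissue differences of miR-103-3p and miR-107-3p fall between these, which were named for their small p, so little follows from that place. An interaction passed for 1 of 27, miR-375-3p in HFLF (-7.19 ± 1.60, edgeR, adjusted p = 0.00998), and without the 4 libraries that stand apart 0 of all miRNAs passed that interaction.

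The pattern of miR-103-3p across libraries, as the deviation of its log2 TMM-scaled level from its group mean, was set beside every other miRNA that passed the filter. In eWAT (18 libraries, 636 miRNAs) the closest were miR-193a-5p (Pearson r = 0.76), miR-203-3p (0.75), miR-203b-3p (0.69), miR-701-5p (0.67) and miR-450a-1-3p (0.65). The first 3 were also among the closest 5 without LF replicates 1 and 4 (0.73, 0.77 and 0.67). miR-107-3p came 48th, at 0.41, or 0.64 over the 16 libraries. In liver (18 libraries, 476 miRNAs) the closest were let-7j (0.63), miR-29b-2-5p (0.58), miR-1247-5p (0.58), miR-324-5p (0.56) and miR-881-3p (0.55), and none of these 5 was among the closest 5 without LF replicate 4 and HF replicate 6. There miR-107-3p came 330th, at -0.06, and at 0.58 over the other 16 libraries. These values are descriptions: libraries share depth and scaling, and several of the closest miRNAs are scarce.

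**Figure D5:**
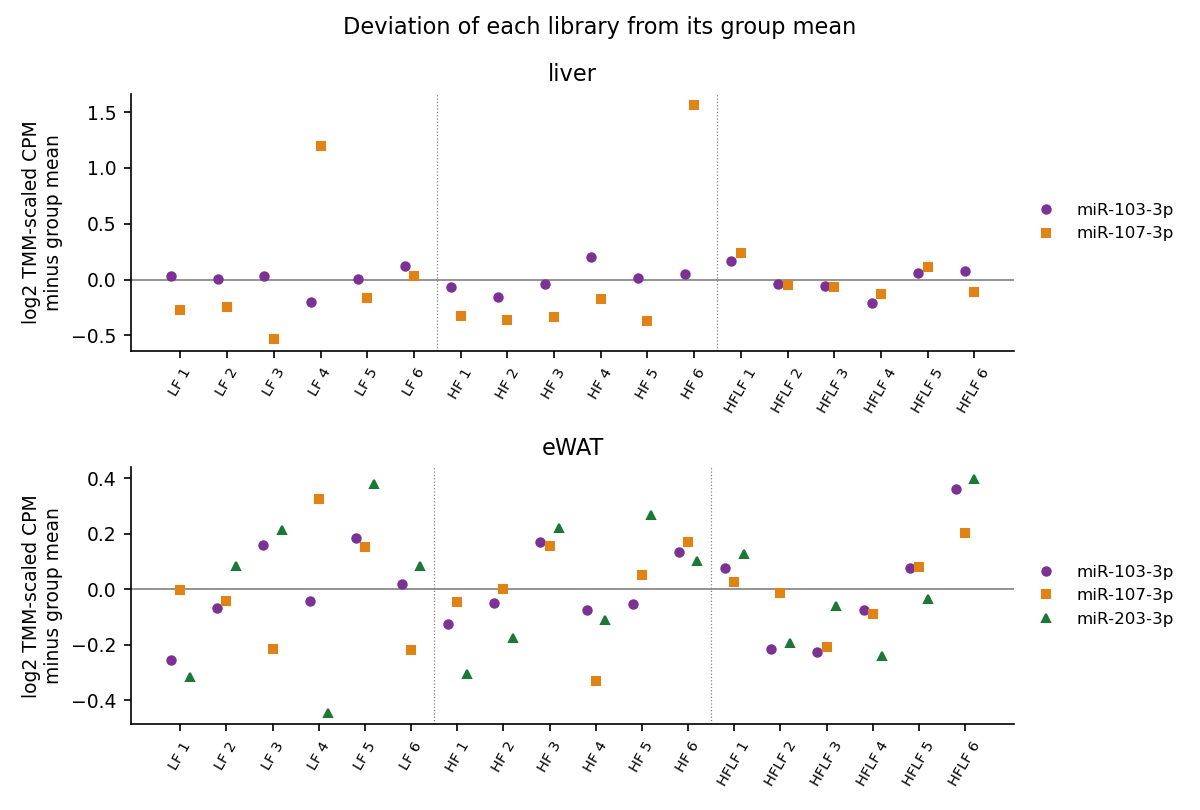
Deviation of the log2 TMM-scaled CPM from the group mean in each library (vertical axis) for miR-103-3p, miR-107-3p and, in eWAT, miR-203-3p. In liver LF replicate 4 and HF replicate 6, miR-107-3p stands 1.19 and 1.56 above its group mean, and miR-103-3p at -0.20 (the lowest of LF) and 0.05.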

How the data were processed

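Small RNA libraries of 18 liver and 18 eWAT samples were used. RNA was taken with TRI reagent and 1 ug entered the NEXTFLEX Small RNA-seq Kit v3, per the labels' protocols. The submitters' processing notes name cutadapt, Bowtie and GRCm38.p6, without versions, and the settings and miRNA annotation release were not given in the sources read. The authors' deposited counts stand in 2118 lines, 1 for each pair of a mature miRNA and a precursor, with CPM columns scaled to the column total, and log2 CPM tables for 171 miRNAs in 16 liver libraries and 180 in 18 eWAT libraries. Column letters C, H and R were read as LF, HF and HFLF.

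The deposited counts of the highest line per miRNA were tested with edgeR 4.0.16 in R 4.3.3 (TMM, filterByExpr with a minimum count of 10 and total of 15, robust quasi-likelihood test, Benjamini-Hochberg adjusted p under 0.05 over all miRNAs kept), 18 libraries per tissue or all 36 together; the tests were checked on simulated counts. CPM in the text is the count scaled to the summed highest lines of the library. Ratios used a pseudocount of 0.5 and exact permutation tests over 924 assignments in SciPy 1.17.1. The planned ratios with 5p arms were not run, since either arm was at 0 in 30 of 36 libraries. DESeq2 1.42.0, limma 3.58.1, other scalings, no filter, summed lines, a replicate block, left-out libraries and, between tissues, miR-122-5p left out were alternatives. The members and lists were chosen with earlier results of these data known; from the lists, at most the 4 miRNAs with the smallest p in a comparison were to be named, and all 7 core relatives are named here after their values were seen. The labels do not say that replicates are separate mice, so p-values measure only the spread between these samples.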

Additional observations from a re-analysis of the deposited data

Results flagged for a closer look

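In each of the 6 groups of 6 libraries, 3 measures (miR-103-3p, miR-107-3p and their ratio) were checked for a single value far from the rest. Of these 18 checks 5 found one, where chance gives about 1 in 20 groups (0.9 of 18), and the ratio is not independent of the levels. In liver LF, replicate 4 was lowest for miR-103-3p at 1349 CPM, with the next at 2068. In liver HF, replicate 6 was highest for miR-107-3p at 922 CPM, with the next at 419, and lowest for the ratio of miR-103-3p to miR-107-3p at 2.11, with the next at 6.91. The authors' liver log2 table, as used here, holds neither of these libraries. In liver HFLF, replicate 6 was highest for the ratio at 7.83, with the next at 6.95. In eWAT HF, replicate 4 was highest for the ratio at 62.6, with the next at 53.0.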

How the results depend on the processing

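Of 212 values of the members and their ratio under alternatives other than leaving out 1 library, 193 kept their direction and their side of the threshold, as did 395 of 420 with 1 library left out. The tissue differences kept both under every alternative run, except those of miR-107-3p in LF with plain CPM (-0.33, not called) and of the ratio under the block. Among diet values, none of which passed the test, miR-107-3p in liver HFLF against LF was -0.057 with RLE size factors, -0.058 with DESeq2 and -0.013 with lines summed, and in HFLF against HF 0.20 without the 4 libraries and 0.21 with limma on the authors' log2 values. miR-103-3p in eWAT HF against LF was -0.0057 with RLE and -0.0057 with DESeq2, -0.033 without a filter, -0.045 with lines summed and -0.054 without the 4 libraries. Without those 4, miR-107-3p in eWAT HF against LF was 0.046, miR-103-3p in eWAT HFLF against LF was -0.00062, and the ratio was -0.15 in liver HFLF against LF, -0.11 in liver HFLF against HF and -0.10 in eWAT HF against LF. Counts of called miRNAs moved with DESeq2 to 16 (eWAT HF against LF), 31 (eWAT HFLF against LF), 29 (HF interaction) and 21 (HFLF interaction). The HF interaction count was 6 without a filter and 1 without the 4 libraries, and the HFLF count 0 without them. The cause was not tested.

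Same-numbered libraries did not deviate together (mean r of 0.0287 between liver groups, 0.0066 between eWAT groups and 0.0153 between tissues), so the numbers were not used as pairs, which does not show that same-numbered liver and eWAT libraries come from different mice. With the replicate block, the tissue differences of the ratio no longer passed: they were 2.998, 3.12 and 3.03 with an adjusted p of 0.09375 each, since 6 pairs allow no exact p under 0.03125, and the interaction counts were 0 for HF and 0 for HFLF.

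With 1 library left out, miR-107-3p ranged from -0.19 (without liver HF replicate 6) to 0.63 (without liver LF replicate 4) in liver HF against LF, -0.10 to 0.35 in HFLF against LF and -0.40 to 0.19 in HFLF against HF. miR-103-3p ranged from -0.084 to 0.024, -0.018 to 0.096 and -0.0070 to 0.11 in the eWAT comparisons in that order. The HF interaction of miR-107-3p ranged from -0.51 to 0.063. The ratio ranged from -0.34 to 0.24, -0.15 to 0.24 and -0.11 to 0.27 in liver and from -0.015 to 0.13, 0.086 to 0.24 and 0.070 to 0.15 in eWAT. Called miRNAs ranged from 0 to 17 in eWAT HFLF against LF (12, 15 and 17 without eWAT LF replicates 2, 5 and 6), 4 (without eWAT LF replicate 4) to 20 for the HF interaction and 5 (without eWAT LF replicate 4) to 17 for the HFLF interaction.

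The low counts of the 5p arms limit any statement on them.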
